A study of Mus musculus with 8 samples.

Results

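The DEAD box and DEAH box helicases of mouse oocytes were compared between Rbpms2 knockout and wild type. Every gene whose symbol is Ddx or Dhx followed by a number, with Ddx4 and Ddx6 left aside, was taken as a member, which gave 51 genes of the 21959 in the table. Of these, 35 carry a Ddx symbol and 16 a Dhx symbol. Membership rests on the symbol alone and uses no measured value. The members and the role groups used below were nevertheless chosen with earlier results of these data known. The knockout libraries came from Rbpms2 knock-out mice and the wild-type libraries from wild-type mice, with 4 libraries each, all from ovaries at postnatal day 1 (P1). A library started from 5 to 10 putative primordial oocytes picked by hand into 1 tube, with 18 cycles of RNA amplification. Expression is given as FPKM, read fragments scaled to exon length and to the depth of the library. The labels give neither the strain nor the deleted part of Rbpms2, and name no Cre driver. Whether the tubes of a genotype came from different animals is not stated either, so a p-value here reflects variation among tubes, and that variation may be technical.

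Both helicase families are built on a pair of RecA-like domains that bind ATP and RNA, and their names spell the amino acids of the motif that binds and hydrolyses ATP. DEAD box proteins open short RNA duplexes or clamp RNA locally, whereas DEAH box proteins move along a strand and pull complexes apart. Most members serve every cell in splicing, mRNA export, ribosome assembly and translation, while a few, such as Ddx25 and Ddx43, are known for their expression in germ cells. RBPMS2, the product of the deleted gene, binds RNA through an RNA recognition motif and is found in oocytes among other cells.

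The motif that names the families is shown for the members on which the results turn, as 60 coding bases from the GENCODE M21 transcripts, with the 12 bases that encode the motif in capitals. The germ cell helicases come first, then the near-identical export helicases, then other members that rose and finally members that fell.
Ddx25: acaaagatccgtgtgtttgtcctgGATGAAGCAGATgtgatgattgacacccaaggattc
Ddx43: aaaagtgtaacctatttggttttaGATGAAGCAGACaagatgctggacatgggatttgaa
Ddx19a: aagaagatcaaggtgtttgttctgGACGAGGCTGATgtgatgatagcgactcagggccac
Ddx19b: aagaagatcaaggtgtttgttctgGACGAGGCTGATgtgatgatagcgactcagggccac
Ddx5: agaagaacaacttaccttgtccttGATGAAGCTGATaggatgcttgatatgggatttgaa
Ddx1: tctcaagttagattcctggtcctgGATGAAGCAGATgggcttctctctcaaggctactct
Ddx52: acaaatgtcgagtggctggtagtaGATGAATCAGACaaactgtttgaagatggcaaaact
Dhx40: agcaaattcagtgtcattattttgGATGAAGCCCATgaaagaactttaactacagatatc
Ddx11: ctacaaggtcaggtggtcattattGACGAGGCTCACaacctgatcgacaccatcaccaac
Dhx57: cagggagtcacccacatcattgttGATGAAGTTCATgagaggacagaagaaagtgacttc
The capitals encode DEAD in Ddx25, Ddx43, Ddx19a, Ddx19b, Ddx5 and Ddx1, and DEAH in Dhx40 and Ddx11. In Ddx52 they encode DESD and in Dhx57 DEVH. Ddx11 thus carries the DEAH spelling under a Ddx symbol. The stretches of Ddx19a and Ddx19b are the same in all 60 bases, and Ddx25 differs from Ddx19a at 17 of them.

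Reads implied by the steps of the FPKM values numbered 9564416 to 14542893 per knockout library and 8321942 to 11941359 per wild-type library. Rbpms2 itself had 38.4, 58.3, 31.0 and 42.5 FPKM in the knockout libraries, against 158.1, 167.4, 135.8 and 212.8 FPKM in the wild-type libraries. It was lower without overlap (log2 fold change -1.98, limma adjusted p = 7.26e-05). All 8 oocyte markers were detected, and their summed level was 686.0 to 1798 FPKM in knockout libraries and 4621 to 6799 FPKM in wild-type libraries. Markers of somatic cells were unevenly spread. The 8 stromal markers summed to 324.8 FPKM in knockout replicate 3 and 288.4 FPKM in knockout replicate 2, and to 8.02 and 10.2 FPKM in the other knockout libraries. In wild type they reached 76.2 FPKM in replicate 3 and lay between 3.45 and 27.3 FPKM elsewhere. The 8 immune markers summed to 387.8 FPKM in knockout replicate 3, and the 7 endothelial markers to 296.7 FPKM in knockout replicate 1. The 7 erythroid markers gave the largest somatic sums. In knockout these were 3212 FPKM in replicate 3 and 2819 FPKM in replicate 2, with 101.8 and 99.6 FPKM in the others. In wild type they were 5354 FPKM in replicate 3 and 4211 FPKM in replicate 1, with 160.3 and 11.9 FPKM in the others. In knockout the 8 granulosa markers summed to 376.2 FPKM in replicate 3 and 45.5 FPKM in replicate 2. The other knockout libraries had 13.5 and 12.1 FPKM. In wild type these markers reached 57.8 FPKM in replicate 3 and lay between 1.63 and 19.2 FPKM elsewhere. Of the granulosa markers, Fshr had 0 reads in every library. The 6 surface epithelium markers summed to 157.4 FPKM in knockout replicate 3 and 89.4 FPKM in knockout replicate 2. In wild type their highest sum was 16.1 FPKM, in replicate 3. In bulk samples such as these, fewer cells of a type and less RNA per cell cannot be told apart.

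Of the 51 helicases, 48 passed the filter of at least 1 FPKM in at least 4 libraries and entered the limma fit over 11235 genes. In knockout, 12 rose and 8 fell at an adjusted p under 0.05, and 28 were not called. That is 41.7% of the helicases tested, beside 43.4% of all genes tested (17.7% called higher and 25.6% called lower), so the share called was near the background. The median log2 fold change was 0.10 over the helicases and -0.12 over all genes tested. By overlap alone, 12 helicases were higher and 8 lower in all 4 knockout libraries than in all 4 wild-type libraries, beside 39.9% of all genes (15.9% higher and 24% lower). The sets were not identical. Ddx20, Ddx50 and Dhx16 were called although their libraries overlapped, and Ddx24, Ddx55 and Dhx29 did not overlap but were not called. Among the 33 tested members with a Ddx symbol 10 rose and 4 fell, and among the 15 with a Dhx symbol 2 rose and 4 fell.

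Scaling and base composition bore on these counts. Median-of-ratios scaling moved the median log2 fold change of all genes from -0.12 to 0.003, and under it 16 helicases were higher and 6 lower, beside 43.1% of all genes (20.7% higher and 22.3% lower). When each library's trend against transcript GC content was removed (the GC correction), 10 were higher and 6 lower, or 33.3% of the helicases, beside 38.5% of all genes (14.4% higher and 24.1% lower). Of the 12 rises 8, and of the 8 falls 3, kept their call under every one of the 20 alternatives that gave a value. The 8 were Ddx1, Ddx5, Ddx20, Ddx21, Ddx25, Ddx43, Ddx52 and Dhx40, and the 3 were Ddx11, Ddx19a and Dhx57.

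**Figure D1:**
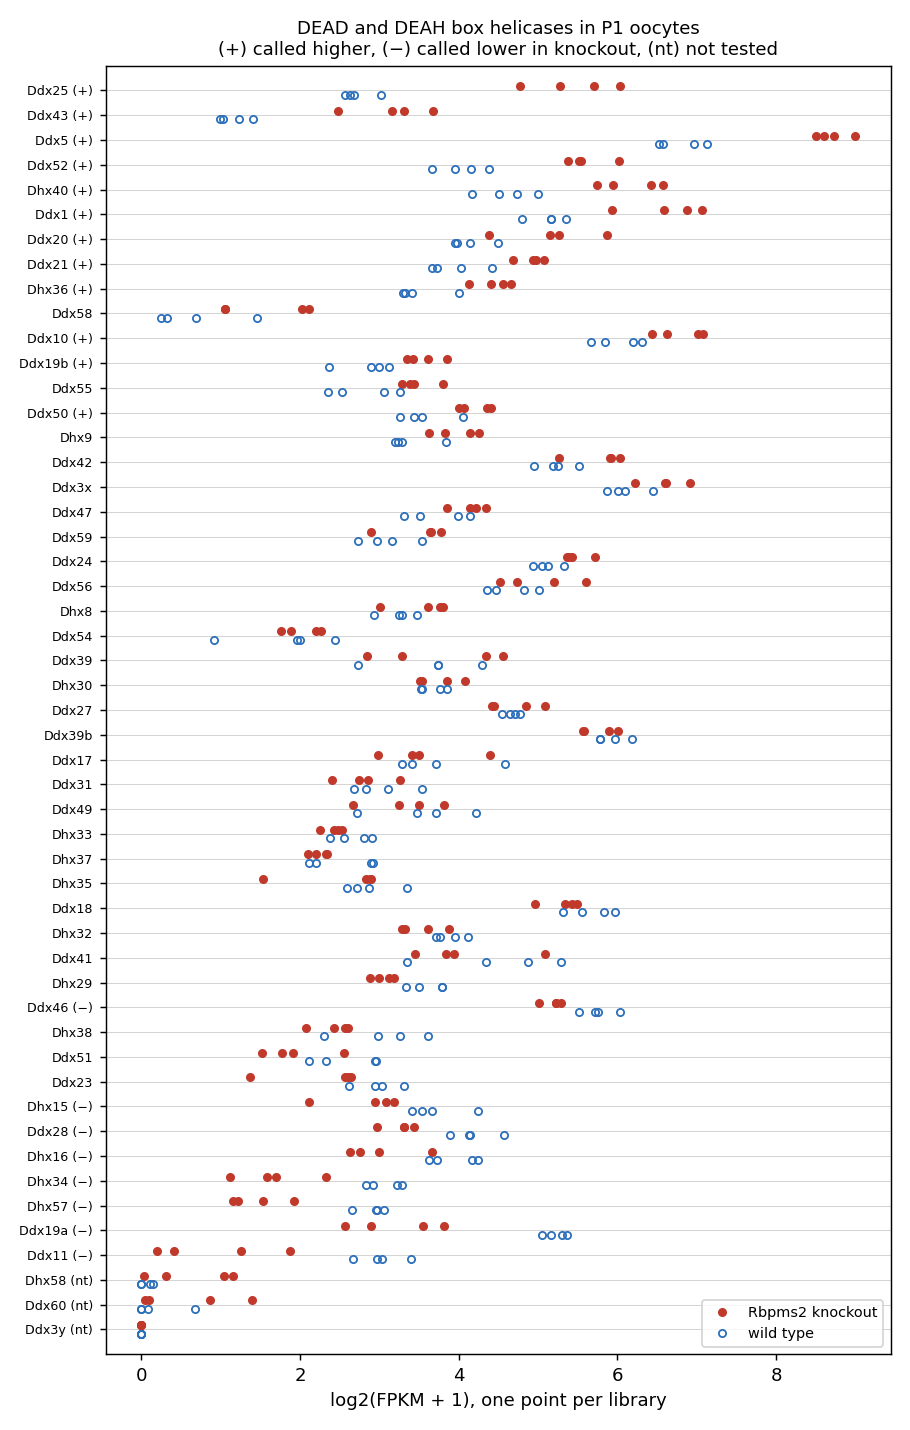
Level of the 51 helicases as log2(FPKM + 1) on the x axis, with 1 row per gene ordered by log2 fold change, knockout libraries as filled red points and wild-type libraries as open blue points (4 each). A plus marks genes called higher, a minus genes called lower and nt genes not tested. Ddx5 reaches farthest right in both genotypes, and the red points of Ddx25 and Ddx43 lie clear of the blue ones.

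The plot of levels by library also gives the order of levels within a genotype. Ddx5, which unwinds structured RNA and acts as a coregulator of transcription, was the highest in all 8 libraries, with a mean of 420.3 FPKM in knockout and 111.9 FPKM in wild type. In knockout it was followed by Ddx10 (111.2 FPKM), Ddx1 (101.2 FPKM), Ddx3x (96.7 FPKM) and Dhx40 (73.0 FPKM). In wild type it was followed by Ddx3x (68.5 FPKM), Ddx10 (64.4 FPKM), Ddx39b (60.3 FPKM) and Ddx46 (53.4 FPKM). Down to the twelfth rank, the step from Ddx5 to the next gene was in each genotype the one step between neighbours whose libraries did not overlap. Ddx25 stood at rank 9 in knockout and rank 42 in wild type, and Ddx19a at rank 31 in knockout and rank 8 in wild type.

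The helicases together took 0.501%, 0.413%, 0.403% and 0.575% of the summed FPKM in the knockout libraries, against 0.304%, 0.302%, 0.296% and 0.265% in the wild-type libraries. Every knockout library was above every wild-type library. Ddx5 alone made up 26.9% to 28.2% of the helicase sum in knockout libraries and 9.52% to 13.6% in wild-type libraries. Without Ddx5 the sum was 1157, 1018, 952.3 and 1296 FPKM in the knockout libraries and 881.9, 880.8, 861.5 and 774.2 FPKM in the wild-type libraries, still without overlap. That sum still holds the other helicases called higher. The 12 called higher, Ddx5 included, summed to 739.4 to 1144 FPKM in knockout libraries and 257.7 to 368.0 FPKM in wild-type libraries. The 8 called lower summed to 66.9 to 76.7 FPKM in knockout libraries and 142.3 to 176.6 FPKM in wild-type libraries. Both sets were picked by their calls, so these sums are no separate result. The number of helicases at 1 FPKM or more was 47 to 50 per knockout library and 46 to 48 per wild-type library. The median helicase had 9.47 to 12.6 FPKM in knockout libraries and 9.85 to 10.6 FPKM in wild-type libraries, so the middle of the family lay in the same range in both genotypes.

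Both germ cell helicases rose. Ddx25 (ENSMUSG00000032101, chromosome 9 from 35536647 to 35558528 in GRCm38), also known as the gonadotropin-regulated testicular RNA helicase, exports and stores mRNA in male germ cells of the mouse. It had 51.1, 37.6, 26.3 and 64.5 FPKM in the knockout libraries, against 7.13, 5.17, 5.43 and 4.92 FPKM in the wild-type libraries. The lowest knockout library was well above the highest wild-type library. Its mean of 44.9 ± 16.6 FPKM in knockout was 7.93-fold that of 5.66 ± 0.998 FPKM in wild type (SD, n = 4 each). The log2 fold change, taken between values of log2(FPKM + 1), was 2.72 ± 0.28 (SE, limma adjusted p = 4.42e-05), and 2.49 after the GC correction (limma adjusted p = 6.07e-05). The exact two-sided permutation p was 0.0286, the smallest that 4 against 4 libraries allow.

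Ddx43 (ENSMUSG00000070291, chromosome 9 from 78395777 to 78423587), known in human as the cancer/testis antigen HAGE and in mouse for a role in spermatogenesis, had 11.8, 8.88, 7.91 and 4.55 FPKM in the knockout libraries. The wild-type libraries had 0.987, 1.64, 1.34 and 1.03 FPKM, so the groups were again apart. The mean was 8.28 ± 2.98 FPKM in knockout and 1.25 ± 0.304 FPKM in wild type (SD, n = 4 each), a 6.62-fold difference. Its log2 fold change was 1.99 ± 0.31 (SE, limma adjusted p = 0.000485), and 1.55 after the GC correction (limma adjusted p = 0.00378). Of its exon bases 15.9% overlap 4930542C12Rik, and the strand setting of the counting is not given in the sources used here, so part of its reads could belong to that gene. In knockout, Ddx25 was highest in replicate 4, whereas Ddx43 was highest in replicate 1 and lowest in replicate 4. Without knockout replicates 2 and 3 and wild-type replicate 3, the 3 libraries with the highest stromal marker sums, both calls held. They also held when wild-type replicate 1 or knockout replicate 1 was left out alone. The other 46 tested helicases, which are not restricted to germ cells, counted 10 higher and 8 lower (median log2 fold change 0.05). That is 39.1% called, near the 43.4% of all genes tested (17.7% higher and 25.6% lower).

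**Figure D2:**
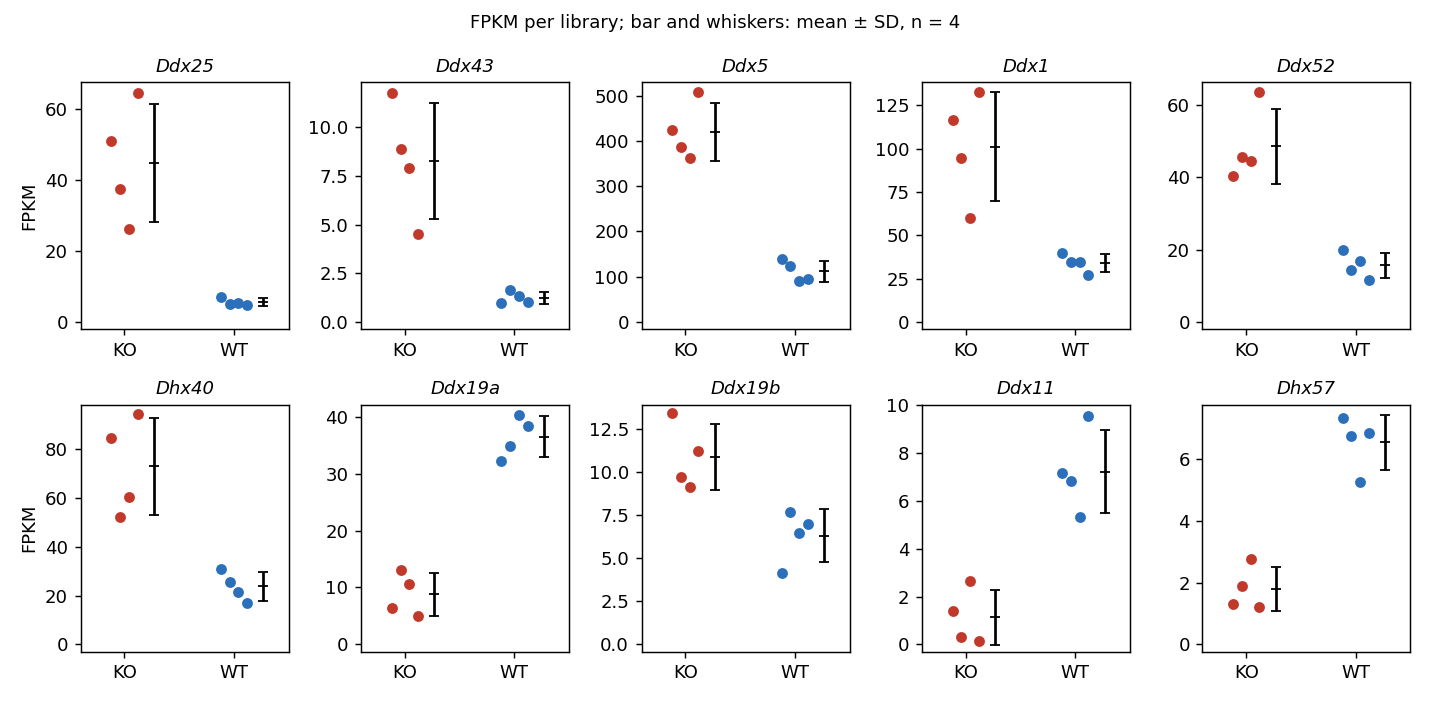
FPKM per library of 10 helicases, knockout (KO) left in red and wild type (WT) right in blue, with 1 point per library in replicate order and a bar with whiskers for mean ± SD (n = 4 each). Ddx25, Ddx43, Ddx5, Ddx1, Ddx52, Dhx40 and Ddx19b are higher in all knockout libraries, and Ddx19a, Ddx11 and Dhx57 lower.

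The panels of FPKM per library set the germ cell helicases beside the largest changes among the others. The promoters of Ddx25 and Ddx43 are shown because these 2 genes rose together. They are RefSeq windows in GRCm38.p6 from 250 bases before to 50 bases after the start. Ddx25 lies at chr9:35558421-35558720 on the minus strand and Ddx43 at chr9:78395527-78395826 on the plus strand. Capitals mark the palindrome CACGTG, the E-box core, and TCCCGC, the reverse complement of GCGGGA, a core of E2F and E2F6 sites.
Ddx25: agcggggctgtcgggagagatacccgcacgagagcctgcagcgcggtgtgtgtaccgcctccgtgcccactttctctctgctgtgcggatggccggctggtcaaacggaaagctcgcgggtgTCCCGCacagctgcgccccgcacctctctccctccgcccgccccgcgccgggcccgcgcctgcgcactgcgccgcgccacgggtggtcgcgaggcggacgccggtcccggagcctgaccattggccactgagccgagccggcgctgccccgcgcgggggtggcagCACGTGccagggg
Ddx43: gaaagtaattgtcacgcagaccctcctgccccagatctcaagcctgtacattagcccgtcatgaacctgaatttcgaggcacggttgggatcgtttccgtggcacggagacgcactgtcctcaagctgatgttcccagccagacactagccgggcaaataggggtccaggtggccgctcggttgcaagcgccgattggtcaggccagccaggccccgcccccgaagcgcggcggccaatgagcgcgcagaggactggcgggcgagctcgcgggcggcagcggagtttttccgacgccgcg
The Ddx25 window held 1 of each motif and 41 CG pairs, and the Ddx43 window held neither motif and 30 CG pairs. The median over 32851 windows, whether or not their genes were expressed here, was 7 CG pairs. The CG pairs of the other helicase windows were not summarized, so the counts are not shown to be particular to Ddx25 and Ddx43. Over both strands CACGTG was in 7.2% of all windows and 10.5% of the 57 helicase windows, and GCGGGA in 20% of all windows and 28.1% of helicase windows. Of the 46 helicases matched to a window, 6 held CACGTG, of which 3 rose (Ddx25, Ddx5 and Dhx40) and none fell. On either strand 15 held GCGGGA, of which 7 rose and 2 fell, and the 3 risers with CACGTG are among those 7. Of all genes tested, whether or not they held a motif, 17.7% were called higher and 25.6% lower. Calls among all genes that hold a motif were not counted, and a link between motif and change was not tested. Neither motif contains the other. A match describes the letters of the window only.

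Among the 8 helicases that work in transcription, translation or on structured RNA, 4 rose and 1 fell (median log2 fold change 0.75, or 0.17 after the GC correction, with 3 higher and 1 lower). The calls made up 62.5% of the group, and 50% after the GC correction, beside 43.4% and 38.5% of all genes. Ddx5 (chromosome 11 from 106780355 to 106789185) had 424.9, 386.3, 362.0 and 508.1 FPKM in the knockout libraries, against 138.9, 123.6, 90.6 and 94.4 FPKM in the wild-type libraries. No knockout library came near the wild-type range. The difference was 3.76-fold, with a log2 fold change of 1.91 ± 0.19 (SE, limma adjusted p = 3.72e-05) and 1.28 after the GC correction. Of the 50-base windows of its transcript, 22.7% also occur in other genes, and how reads with several positions were counted is not given. Its paralog Ddx17, whose coding sequence is 70.1% identical, had 10.3, 9.60, 19.96 and 6.88 FPKM in the knockout libraries. In wild type it had 9.61, 8.76, 23.1 and 12.1 FPKM. The groups overlapped, and replicate 3, rich in stromal markers, was the highest in both genotypes. The log2 fold change of -0.18 was not called (limma adjusted p = 0.712). The difference between the paralogs was not tested.

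Ddx1, a helicase of the tRNA ligase complex, had 116.7, 94.9, 60.3 and 133.1 FPKM in the knockout libraries, against 39.7, 34.8, 34.9 and 26.9 FPKM in the wild-type libraries. All 4 knockout libraries were above the wild-type range, and the log2 fold change was 1.50 ± 0.25 (SE, limma adjusted p = 0.000848). Ddx20, also called Gemin3 and part of the SMN complex that loads spliceosomal particles, had 34.5, 37.3, 19.9 and 57.5 FPKM in knockout. It had 16.6, 21.6, 14.8 and 14.5 FPKM in wild type. Knockout replicate 3 lay inside the wild-type range, yet the change of 1.02 was called (SE 0.30, limma adjusted p = 0.0169). Dhx36, which resolves G-quadruplexes, averaged 20.9 ± 3.36 FPKM in knockout and 10.6 ± 2.95 FPKM in wild type (SD, n = 4 each). Its rise of 0.93 (limma adjusted p = 0.00828) ended at 0.18 after the GC correction (limma adjusted p = 0.556). Dhx34, which acts in nonsense-mediated decay, fell by 1.38 on the log2 scale, with means of 2.35 ± 1.19 FPKM in knockout and 7.42 ± 1.28 FPKM in wild type (SD, n = 4 each, limma adjusted p = 0.00394). The GC correction left -0.74 (limma adjusted p = 0.0891). Dhx9, which unwinds double-stranded RNA, had a change of 0.57 (limma adjusted p = 0.0778). It was called higher with median-of-ratios scaling and without wild-type replicate 3. Dhx29, which helps ribosomes scan structured leaders, had a change of -0.56 (limma adjusted p = 0.0601), without overlap between its libraries. After the GC correction Dhx29 was called lower (-0.61, limma adjusted p = 0.0458).

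None of the 16 ribosome assembly helicases fell, while 4 rose and 12 were not called, with a median log2 fold change of 0.27 (0.30 after the GC correction). That is 25% called, all of them higher, beside 43.4% of all genes tested (17.7% higher and 25.6% lower). After the GC correction 4 were higher and 0 lower, beside 14.4% higher and 24.1% lower of all genes. Ddx52, the counterpart of yeast Rok1, had 40.4, 45.5, 44.6 and 63.6 FPKM in the knockout libraries, against 19.9, 14.4, 16.7 and 11.6 FPKM in the wild-type libraries. Its lowest knockout library had more than the highest wild-type library, and its log2 fold change was 1.57 ± 0.22 (SE, limma adjusted p = 0.000308). Ddx21, a nucleolar helicase that links RNA polymerase I and II transcription to rRNA processing, had 30.4, 32.6, 24.7 and 29.7 FPKM in knockout, against 11.6, 15.3, 20.4 and 12.2 FPKM in wild type. The 2 groups did not overlap (log2 fold change 0.96, SE 0.22, limma adjusted p = 0.00529). Ddx50, the paralog of Ddx21, with a coding sequence 68.2% identical, had 20.1, 15.0, 15.7 and 19.5 FPKM in knockout, against 10.6, 9.85, 15.6 and 8.57 FPKM in wild type. Wild-type replicate 3 overlapped the knockout range, and the rise of 0.63 (limma adjusted p = 0.0482) kept its call in 7 of 20 alternatives. Of the 50-base windows of Ddx50, 17.3% also occur in other genes. Ddx10 averaged 111.2 ± 23.2 FPKM in knockout and 64.4 ± 13.4 FPKM in wild type (SD, n = 4 each). Its rise of 0.78 (limma adjusted p = 0.0132) ended at 0.24 after the GC correction (limma adjusted p = 0.326).

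The other 12 ribosome assembly helicases had log2 fold changes between -0.65 (Ddx51) and 0.68 (Ddx55). Ddx24 and Ddx55 did not overlap, with 40.2 to 51.7 FPKM in knockout and 29.6 to 39.0 FPKM in wild type for Ddx24, and 8.71 to 12.9 FPKM in knockout and 4.11 to 8.60 FPKM in wild type for Ddx55. Neither was called (limma adjusted p = 0.118 for Ddx24 and 0.0647 for Ddx55), and both were called higher after the GC correction. For Ddx18, 62.7% of 50-base windows also occur in other genes. For Ddx49, 29.9% of exon bases overlap Homer3. The values of Ddx18 and Ddx49 are therefore uncertain.

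The mRNA export helicases held a pair of paralogs that changed in opposite directions. Ddx19a and Ddx19b, which remodel mRNPs at the nuclear pore, are neighbours on chromosome 8 in GRCm38, at 110974996 to 110997800 for Ddx19a and 111003188 to 111031751 for Ddx19b. Ddx19a had 6.45, 13.1, 10.7 and 4.92 FPKM in the knockout libraries, against 32.2, 34.8, 40.3 and 38.4 FPKM in the wild-type libraries. The highest knockout library was below the lowest wild-type library. The mean was 8.79 ± 3.78 FPKM in knockout and 36.4 ± 3.61 FPKM in wild type (SD, n = 4 each), 4.15-fold lower, with a log2 fold change of -2.01 ± 0.28 (SE, limma adjusted p = 0.00027). After the GC correction it was -1.98. Ddx19b had 13.5, 9.70, 9.15 and 11.2 FPKM in knockout, against 4.16, 7.70, 6.45 and 6.99 FPKM in wild type. It was higher in all knockout libraries, with a log2 fold change of 0.71 ± 0.25 (SE, limma adjusted p = 0.0397). That call ended after the GC correction (0.49, limma adjusted p = 0.145) and when any library but knockout replicate 3 was left out. In knockout the levels of Ddx19a and Ddx19b overlapped, whereas in wild type Ddx19a was above Ddx19b in every library.

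The coding sequences of Ddx19a and Ddx19b are 93.1% identical, with an unbroken shared run of 275 bases, and their stretches around the motif are those printed above. Of the 50-base windows of Ddx19a 33.3% occur in another gene, and of Ddx19b 27.2%. How such reads were assigned is not given in the sources used here, so the split between the paralogs is uncertain where the sequence is shared. The other export pair, Ddx39 and Ddx39b, which bring the TREX complex to mRNA, did not pass the test. Ddx39b had 63.3, 58.4, 46.8 and 46.5 FPKM in knockout, against 61.5, 71.9, 54.1 and 54.0 FPKM in wild type. The groups overlapped, with a log2 fold change of -0.17 (limma adjusted p = 0.486) that turned to 0.22 after the GC correction. Ddx39 had 19.3, 22.6, 6.17 and 8.72 FPKM in knockout and 12.3, 12.3, 5.65 and 18.6 FPKM in wild type, with a change of 0.13 (limma adjusted p = 0.826). Its sign turned when any of 3 libraries was left out, namely knockout replicate 1 (-0.06), knockout replicate 2 (-0.14) or wild-type replicate 3 (-0.16), and without the 3 libraries highest in stromal markers (-0.11). Of the exon bases of Ddx39, 17.4% overlap Adgre5.

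Of the 9 splicing helicases none rose, 3 fell and 6 were not called, with a median log2 fold change of -0.57 (-0.13 after the GC correction, with 2 lower). Of all genes tested, 17.7% were called higher and 25.6% lower. Median-of-ratios scaling gave 1 splicing helicase higher and 1 lower, and leaving out the 3 libraries highest in stromal markers gave 1 higher and 2 lower. Dhx15, which releases the intron lariat with G-patch partners, had 3.34, 7.49, 8.11 and 6.71 FPKM in the knockout libraries. The wild-type libraries had 9.65, 11.7, 18.0 and 10.6 FPKM. The groups did not overlap, with a log2 fold change of -0.88 ± 0.30 (SE, limma adjusted p = 0.0359) and -1.38 after the GC correction (limma adjusted p = 0.00567). The call ended when knockout replicate 1 or 4, or wild-type replicate 2, 3 or 4, was left out. It also ended with median-of-ratios scaling (limma adjusted p = 0.0631) and with no filter (limma adjusted p = 0.0597). Ddx46, the counterpart of yeast Prp5 in branch site recognition, averaged 35.5 ± 2.90 FPKM in knockout and 53.4 ± 8.25 FPKM in wild type (SD, n = 4 each). The call of its fall of 0.57 (limma adjusted p = 0.0248) ended without knockout replicate 1 or 2 and without wild-type replicate 2, 3 or 4. It also ended without the 3 libraries highest in stromal markers and with median-of-ratios scaling (limma adjusted p = 0.0886). After the GC correction the log2 fold change of Ddx46 was -0.94 (limma adjusted p = 0.00235). Dhx16, the counterpart of yeast Prp2, averaged 7.38 ± 2.94 FPKM in knockout and 14.6 ± 3.34 FPKM in wild type (SD, n = 4 each). Its libraries overlapped. The change of -0.93 (limma adjusted p = 0.021) was -0.38 after the GC correction (limma adjusted p = 0.268), and the call also ended without knockout replicate 4 or wild-type replicate 2 or 3. The remaining 6 were Ddx23, Ddx41, Ddx42, Dhx8, Dhx35 and Dhx38, at -0.68 to 0.56, with Ddx42 the highest (limma adjusted p = 0.0603). Ddx42 was called higher with median-of-ratios scaling, without knockout replicate 2 and without the 3 libraries highest in stromal markers.

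**Figure D3:**
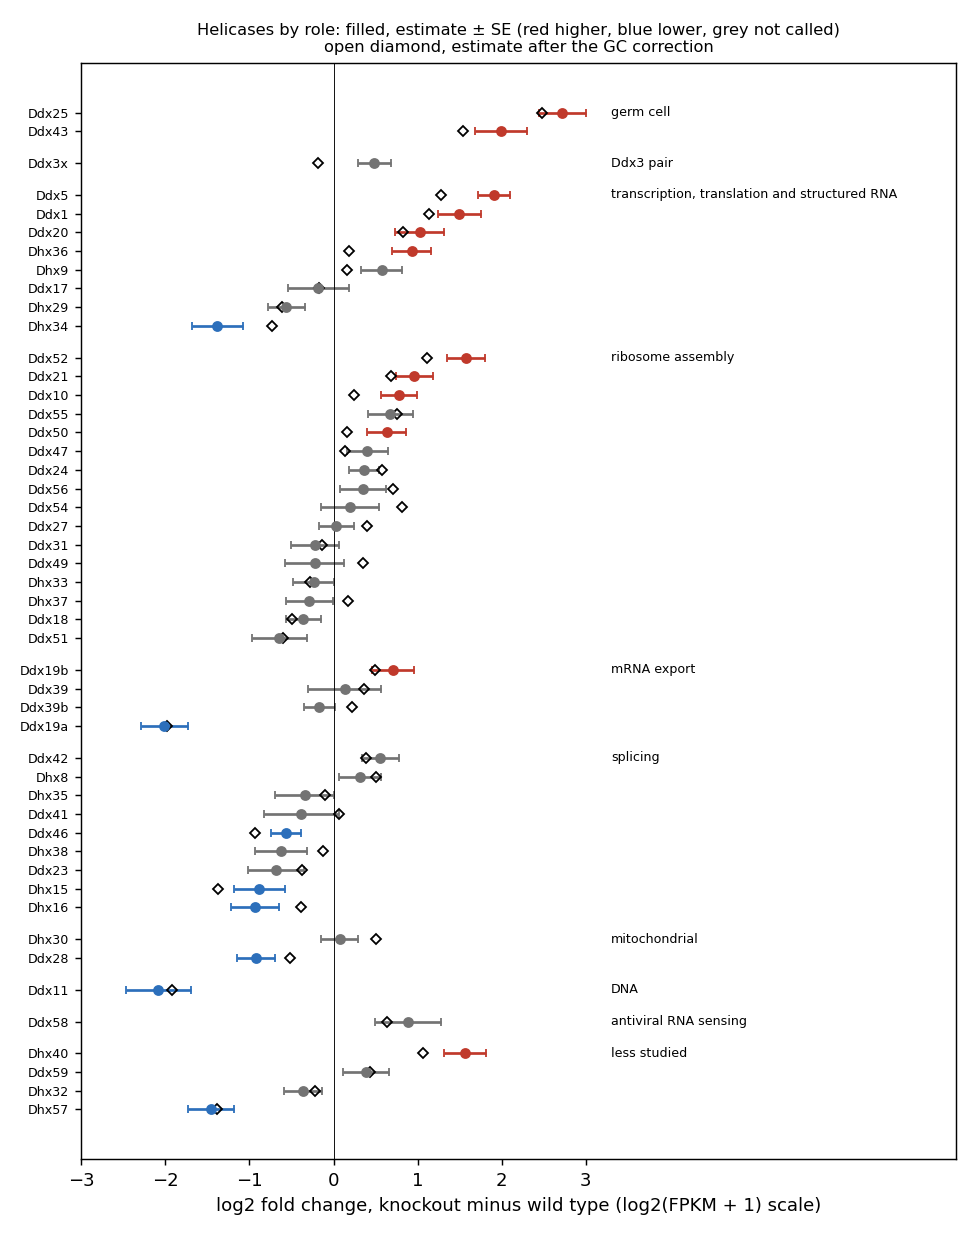
Log2 fold change (knockout minus wild type, log2(FPKM + 1) scale) of the 48 tested helicases grouped by role, as filled points with standard errors (red called higher, blue called lower, grey not called) and, as open diamonds, the estimates after the GC correction. The germ cell pair lies to the right of 0 under both estimates, no ribosome assembly helicase is blue, and Ddx19a and Ddx19b lie on opposite sides.

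The plot by role also holds the small groups. Ddx3x, the X-linked translation helicase, had 73.7, 96.9, 96.1 and 120.0 FPKM in knockout, against 57.4, 67.3, 86.0 and 63.3 FPKM in wild type. The groups overlapped at 1 knockout and 1 wild-type library, and the log2 fold change of 0.49 was not called (limma adjusted p = 0.0718). It turned to -0.19 after the GC correction, and was called higher with median-of-ratios scaling and without knockout replicate 1 or wild-type replicate 3. Ddx3y, the Y-linked paralog of Ddx3x, had 0 reads in all 8 libraries, which all came from ovaries. For a Y-linked gene in ovaries, 0 reads do not describe regulation. In these libraries 3 reads would be 0.0397 to 0.0603 FPKM in knockout and 0.0483 to 0.0693 FPKM in wild type. Such floors cover counting error only, since amplified reads without molecular identifiers are not independent molecules.

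Of the mitochondrial helicases Ddx28 fell, with 8.88, 8.91, 6.83 and 9.85 FPKM in knockout, against 22.8, 16.6, 16.4 and 13.8 FPKM in wild type. The groups did not overlap (log2 fold change -0.93, SE 0.23, limma adjusted p = 0.00722), but after the GC correction the change was -0.52 (limma adjusted p = 0.107). Dhx30, which acts on mitochondrial ribosomes, differed by 0.08 (limma adjusted p = 0.805). Ddx11 (chromosome 17 from 66123520 to 66152174), a DNA helicase of sister chromatid cohesion, had 1.39, 0.332, 2.65 and 0.142 FPKM in the knockout libraries, against 7.16, 6.85, 5.33 and 9.54 FPKM in the wild-type libraries. All knockout libraries were below all wild-type libraries. The mean of 1.13 ± 1.15 FPKM in knockout was 6.40-fold below that of 7.22 ± 1.74 FPKM in wild type (SD, n = 4 each), with a log2 fold change of -2.08 ± 0.39 (SE, limma adjusted p = 0.00159). It was -1.92 after the GC correction.

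Among the less studied helicases 1 rose and 1 fell. Dhx40 had 84.5, 52.4, 60.6 and 94.4 FPKM in knockout, against 31.0, 25.7, 21.7 and 16.9 FPKM in wild type. Each knockout library was above each wild-type library (log2 fold change 1.57, SE 0.25, limma adjusted p = 0.000624). Dhx57 had 1.32, 1.89, 2.78 and 1.23 FPKM in knockout, against 7.35, 6.75, 5.27 and 6.86 FPKM in wild type. Each knockout library was below each wild-type library (log2 fold change -1.46, SE 0.27, limma adjusted p = 0.00164). Ddx59 differed by 0.39 (limma adjusted p = 0.28) and Dhx32 by -0.37 (limma adjusted p = 0.207). Of the antiviral RNA sensors only Ddx58, the gene of RIG-I, entered the test. It had 1.08, 1.08, 3.33 and 3.07 FPKM in knockout, against 0.618, 1.76, 0.185 and 0.256 FPKM in wild type, and was not called (0.88, limma adjusted p = 0.0912). Ddx60 had at most 1.62 FPKM in knockout and 0.600 FPKM in wild type, and Dhx58 at most 1.23 FPKM in knockout and 0.109 FPKM in wild type. In knockout all 3 sensors were highest in replicate 3, where the immune marker sum was also highest. The immune sums were 16.5, 51.2, 387.8 and 28.5 FPKM in knockout replicates 1 to 4. In the same order Dhx58 had 0.235, 0.0210, 1.23 and 1.05 FPKM, and Ddx60 had 0.827, 0.0713, 1.62 and 0.0361 FPKM. Ddx58 and Dhx58 were thus nearly as high in replicate 4 as in replicate 3. The part of immune cells in these values was not tested.

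**Figure D4:**
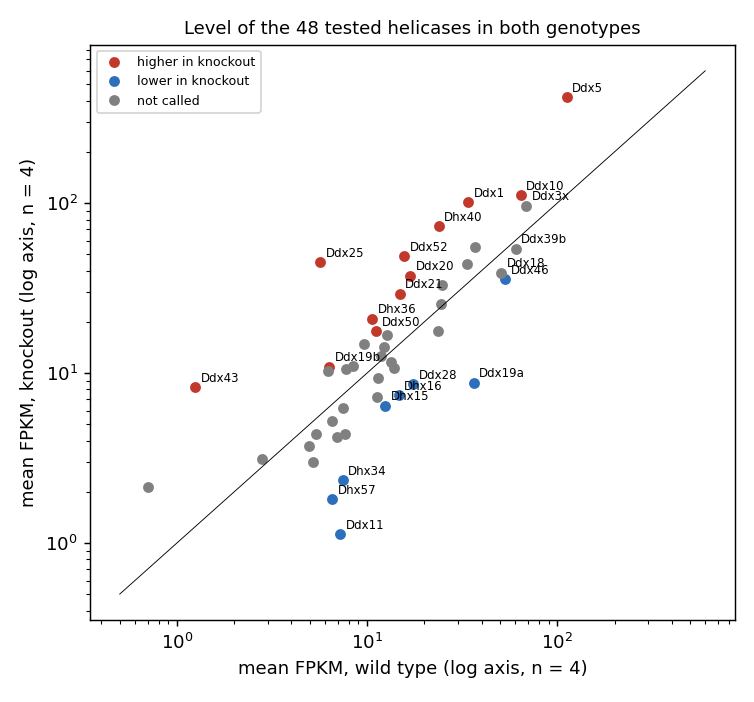
Mean FPKM in knockout (y) against mean FPKM in wild type (x), both log axes, for the 48 tested helicases, with the line of equality. Red points, called higher, lie above the line with Ddx25 and Ddx43 farthest from it, and blue points, called lower, lie under it with Ddx11 and Ddx19a farthest.

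The plot of means shows that calls came at all levels of expression. The members called higher had a median wild-type mean of 15.3 FPKM, those called lower 13.6 FPKM and those not called 11.3 FPKM. What the rule did not use, the base composition of the transcripts, differed between them. The longest coding transcript had a median GC content of 44.0% (40.0% to 47.3%) in the 12 helicases that rose, 51.1% (43.4% to 59.6%) in the 8 that fell and 51.9% in the 28 not called. Over all genes tested the medians were 45.3% in those called higher, 53.4% in those called lower and 49.4% in those not called. Spearman's rho between GC content and log2 fold change was -0.59 over the 48 helicases and -0.37 over 11220 genes, given as descriptions because genes share libraries and are not replicates. The part of GC content in the changes was not tested beyond the values after the correction.

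**Figure D5:**
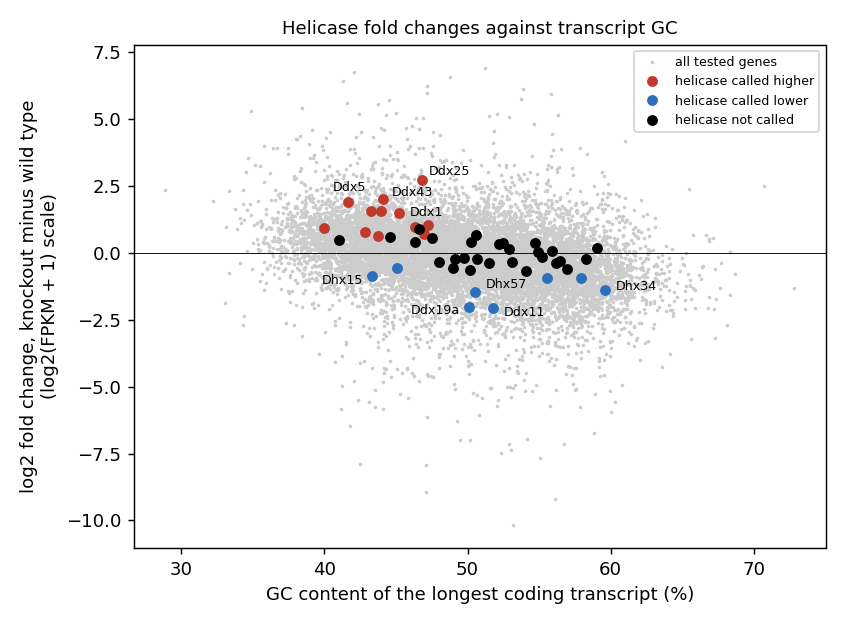
Log2 fold change (knockout minus wild type, log2(FPKM + 1) scale) against the GC content of the longest coding transcript, for all tested genes (grey) and for helicases called higher (red), called lower (blue) or not called (black). All red helicases lie between 40.0% and 47.3% GC, and the grey cloud also slopes downward.

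The plot against GC content shows that Dhx15 and Ddx46 fell although their transcripts have 43.4% and 45.1% GC. In these 2 genes the fall was larger after the GC correction. The 3′UTR was also examined, since proteins of the RBPMS family are known to bind RNA with CAC motifs. CAC occurred 13.1 times per kilobase of 3′UTR in the median helicase that rose, 13.3 times in the one that fell and 17.2 times in the one not called. Over all genes tested the values were 12.4 in those called higher, 16.0 in those called lower and 14.4 in those not called. Ddx25 has a 3′UTR of 5351 bases with 109 CAC, or 20.4 per kilobase. A match of these letters says nothing of binding.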

How the data were processed

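RNA of 8 tubes of P1 oocytes, 4 Rbpms2 knockout and 4 wild type, was measured as FPKM. The deposited table holds FPKM per gene, which the authors made with cutadapt, HISAT2 and HTSeq on GRCm38 (mm10), per the submitters' processing notes. Their versions, the annotation and the strand setting were not given in the labels or notes. The labels' growth protocol speaks of a microarray, whereas the values are those of sequencing. Of 21959 genes, 21851 matched a symbol and exon length in GENCODE M21. Multiplied by exon length, 97.4% to 97.6% of values per library were whole reads within 0.02 reads, and depth was taken from these steps. Depth ran from 8321942 to 14542893 reads. It bears on counting error only, since amplified reads are not independent molecules.

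Genes with FPKM of at least 1 in at least 4 libraries (11235) entered a limma fit (limma 3.58.1, R 4.3.3) of log2(FPKM + 1) on genotype, with trended eBayes variances and Benjamini-Hochberg adjustment over all of them. On this scale the change of a gene with low FPKM is understated. Folds given as ratios are ratios of mean FPKM. GC content came from the longest protein-coding GENCODE M21 transcript. The 3′UTRs and coding stretches came from the transcript with the longest coding sequence, which can be another transcript of the gene. Promoters came from RefSeq in GRCm38.p6. Paralogs were aligned with Biopython 1.88. Of these steps, only the limma fit was tested on simulated data, which held no GC trend between genotypes. The alternatives and the sequence steps were not tested in this way.

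The alternatives changed the pseudocount (0.1 or 5), the filter (none, or 5 FPKM), the scaling (equal totals, or median of ratios) and the model. They also comprised a GC correction by loess of span 0.5 within each library, the replicate number as a block, both together, each library left out, the 3 libraries highest in stromal markers left out, eBayes without trend, and limma-voom on recovered reads. The members, role lists, lists of related helicases and cofactors, and tests were chosen with earlier results of these data known. Named were Rbpms2, the germ cell and Ddx3 helicases, 4 paralog pairs, the 3 highest helicases in wild type, the called rises (up to 10) and called falls (up to 10, of which there were 8) largest in log2 fold change with a mean of at least 5 FPKM, and up to 2 called genes per list of related helicases or cofactors. Other helicases were named after their values were seen.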

Additional observations from a re-analysis of the deposited data

Results flagged for a closer look

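A single library stood far from the other 3 of its genotype in 6 of the 100 groups of 4 helicase values that were checked, and chance alone flags about 1 in 20. In knockout replicate 2, Ddx23, a splicing helicase, had 1.59 FPKM, against 4.93 to 5.22 FPKM in the other knockout libraries. In the same library Dhx35, another splicing helicase, had 1.9 FPKM, against 6.11 to 6.41 FPKM in the others. Ddx24 in knockout replicate 4 had 51.7 FPKM, against 40.2 to 41.9 FPKM in the others.

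The other 3 were values of wild-type replicate 3, the wild-type library with the highest stromal marker sum. Dhx36 had 15 FPKM there, against 8.84 to 9.6 FPKM in the other wild-type libraries. Dhx9 had 13.3 FPKM, against 8.2 to 8.74 FPKM, and Ddx60 had 0.6 FPKM, against 0 to 0.058 FPKM. Somatic cells as a source of these values were not tested.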

How the results depend on the processing

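With the alternatives, 9 to 16 helicases were called higher (12 in the reported fit) and 5 to 9 lower (8 in the reported fit). The count of lower calls was 5 with the GC correction and the replicate block together. Leaving out 1 library at a time gave 10 to 13 higher and 5 to 9 lower, and the 5 came from leaving out wild-type replicate 2 or replicate 3. Of 699 values of 35 named genes under the alternatives, 630 kept direction and call, 56 lost the call, 3 gained one and 10 changed sign. Those that changed sign were of genes not called: Ddx3x (-0.187 with the GC correction, with or without the block), Ddx39b (0.222 with the GC correction, with or without the block), Ddx17 (0.0162 without knockout replicate 4 and 0.0997 without wild-type replicate 3, in a range from -0.454 over single libraries left out) and Ddx39 (-0.0634 without knockout replicate 1, -0.135 without knockout replicate 2, -0.164 without wild-type replicate 3, in a range up to 0.437, and -0.108 without the 3 libraries highest in stromal markers). The cause was not tested. Replicate numbers were not treated as pairs in the reported fit. Deviations of same-numbered knockout and wild-type libraries correlated at 0.185, 0.0158, 0.361 and -0.053. Those of unlike-numbered libraries correlated at -0.341 to 0.33, so the 0.361 of replicate 3 was the highest. Whether the numbers pair the samples was not tested. With the number as a block 10 helicases were higher and 8 lower, and Ddx19b (0.712, limma adjusted p = 0.0692) and Ddx50 (0.634, limma adjusted p = 0.071) were no longer called.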

Other observations

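Helicases of the same superfamily under other symbols, and partners of the helicases above, were counted in the same fit. These lists were chosen with earlier results of these data known, so the counts and shares are descriptions only. Of 13 related helicases tested 5 rose and 2 fell, or 53.8%, beside 43.4% of all genes tested. D1Pas1, an autosomal relative of Ddx3x known from the mouse testis, had 38.3, 50.7, 26.2 and 66.2 FPKM in the knockout libraries, against 1.56, 2.66, 3.06 and 1.27 FPKM in the wild-type libraries. The groups were far apart, with a log2 fold change of 3.85 ± 0.32 (SE, limma adjusted p = 1.05e-05) and 3.85 after the GC correction. Hfm1, a meiotic DNA helicase of crossover formation, averaged 28.0 ± 13.8 FPKM in knockout and 1.29 ± 0.451 FPKM in wild type (SD, n = 4 each). Tdrd12, a helicase of the piRNA pathway, averaged 34.0 ± 9.12 FPKM in knockout and 8.64 ± 1.21 FPKM in wild type (SD, n = 4 each). Tdrd9, another piRNA pathway helicase, averaged 36.3 ± 13.8 FPKM in knockout and 58.7 ± 16.9 FPKM in wild type (SD, n = 4 each) and was not called (-0.74, limma adjusted p = 0.0965). Hfm1 and Tdrd12, like Eif4a2 and Mtrex, were called higher, and Mtrex lost its call after the GC correction (0.48, limma adjusted p = 0.178) and without knockout replicate 1 or 4 or wild-type replicate 4.

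Dicer1, whose product cuts small RNA precursors and carries a helicase domain, had 4.51, 5.04, 4.14 and 5.45 FPKM in knockout, against 30.4, 31.4, 35.9 and 40.1 FPKM in wild type. Every knockout library was below every wild-type library (log2 fold change -2.61, SE 0.20, limma adjusted p = 6.69e-06). Skiv2l, a helicase of cytoplasmic RNA decay, also fell (-1.35, limma adjusted p = 0.000795).

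Of 9 tested partners of Ddx39b in the TREX export complex, 5 rose and 1 fell, and after the GC correction 2 were higher and 1 lower. Thoc1 averaged 20.9 ± 4.16 FPKM in knockout and 4.52 ± 1.50 FPKM in wild type, and Thoc3 averaged 68.6 ± 10.8 FPKM in knockout and 31.0 ± 2.37 FPKM in wild type (SD, n = 4 each). Gle1, the activator of Ddx19 at the nuclear pore, fell by 0.67 on the log2 scale (limma adjusted p = 0.0275). That call ended with median-of-ratios scaling (limma adjusted p = 0.103), with the GC correction and block together (limma adjusted p = 0.0602), and without knockout replicate 1 or 3 or wild-type replicate 1 or 4 (limma adjusted p = 0.0526 to 0.0707). Over its alternatives the adjusted p lay between 0.0196 and 0.103. Of 7 SMN complex genes 2 rose, Gemin2 (1.57, limma adjusted p = 0.00189) and Strap (1.38, limma adjusted p = 0.00124), and 1 fell. Rtcb, the ligase that works with Ddx1, rose by 0.95 (limma adjusted p = 0.00421), and the other 3 tRNA ligase genes were not called. Of 15 G-patch genes tested, whose products activate DEAH box helicases, 2 rose and 2 fell, with Pinx1 at -1.65 (limma adjusted p = 0.0026) and Rbm17 at -0.93 (limma adjusted p = 0.00244). Over all these lists 15 of 51 tested genes were higher and 7 lower in knockout, or 43.1%, near the 43.4% of all genes.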
